A study of Homo sapiens with 6 samples.

Results

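The genes described here are the heat shock proteins, the J-domain (DNAJ) co-chaperones, the subunits of the cytosolic chaperonin CCT/TRiC and the heat shock factors HSF1 and HSF2. They were taken from the deposited gene table by name and biotype: protein-coding genes whose symbol starts with HSPA, HSPB, HSPD, HSPE or HSPH, with DNAJA, DNAJB or DNAJC and a number, or with CCT2 to CCT8, together with TCP1, HSF1 and HSF2. This rule found 83 of the 33981 genes in the table and used no measured value. The symbols of the HSP90 genes fall outside it, and they are given separately as partners. THP-1 cells, monocytic cells of an acute myeloid leukemia (AML) line, were transduced with lentivirus carrying scrambled shRNA (3 samples, C1, C3 and C4) or shRNA against NFIC, the transcription factor nuclear factor I-C (3 samples, N1, N2 and N3). Cells of both groups were sorted for GFP 4 days after transduction, and their mRNA was sequenced in bulk, with no other agent named in the labels. The design is limited to 1 cell line, and the paper names only 1 shRNA against NFIC for this sequencing. Effects of that shRNA on other genes cannot be told apart from those of the loss of NFIC. The labels do not say whether the 3 samples of a group came from separate cultures. The p-values therefore measure the spread between these samples, which may be technical.

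Chaperones hold and refold proteins that are unfolded. HSP70 proteins bind exposed hydrophobic stretches in a cycle of ATP hydrolysis that J-domain proteins start and that HSP110 proteins and other nucleotide exchange factors reset, and each compartment of the cell has its own set. The chaperonins enclose their clients in a barrel, which HSPD1 and its lid HSPE1 form in mitochondria and CCT/TRiC forms in the cytosol, where actin and tubulin are among its clients. Heat and other stresses raise a part of these genes through heat shock factor 1, whereas unfolded proteins in the endoplasmic reticulum raise another part through separate sensors.

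The total was between 20369543 and 24809720 counts per sample, and a floor of 3 counts was worth 0.122 to 0.146 CPM (counts scaled to library size with TMM factors), which covers counting error only. NFIC, the targeted gene, went from 41.9 ± 0.445 to 21.0 ± 1.52 CPM (SD, n = 3) on knockdown. All 8 monocyte markers examined were detected in both groups. Of these, CD14, ITGAM and LYZ were called higher with NFIC shRNA (log2 fold changes 0.65, 0.99 and 0.72), CD33, CD68 and CSF1R lower (-0.97, -1.01 and -0.59), and FCGR1A and SPI1 were not called, and their summed level was 1293 to 1419 CPM in the scrambled and 1491 to 1671 CPM in the NFIC shRNA samples. The summed level of 4 lymphoid markers was low, 9.66 to 10.3 CPM in the scrambled and 4.51 to 5.39 CPM in the NFIC shRNA samples, and that of 7 granulocyte markers, most of it ELANE, was 2241 to 2687 CPM in the scrambled and 1687 to 1748 CPM in the NFIC shRNA samples. The 3 genes of red cells summed to between 0 and 0.173 CPM. The part of such shifts in the results below was not tested, and in bulk RNA a change in the number of cells of one kind cannot be told apart from a change in RNA per cell.

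The chaperone genes changed in both directions after NFIC knockdown, most of them by a modest amount. Of the 83 members, 76 passed the filter on low counts. They were read from a fit of edgeR's quasi-likelihood model to all 19182 genes that passed, with Benjamini-Hochberg adjustment over all of these. At an adjusted p under 0.05, 30 were higher and 19 lower with NFIC shRNA, and 27 were not called. Among all genes tested 59.9% were called, 29.6% higher and 30.3% lower, against 39.5% higher and 25.0% lower among the members tested. The members are protein-coding by the rule, whereas the genes tested include other biotypes. In a fit of protein-coding genes only, 9092 of 13800 genes were called. In that fit 28 of the 76 members tested were higher and 20 lower. The median log2 fold change was 0.08 over the members tested and -0.01 over all genes tested. Of the 49 members called, 27 changed by less than 0.5 on the log2 scale and 6 by more than 1, and the corresponding shares were 55.1% and 12.2%, against 43.9% and 19.9% of all genes called.

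**Figure D1:**
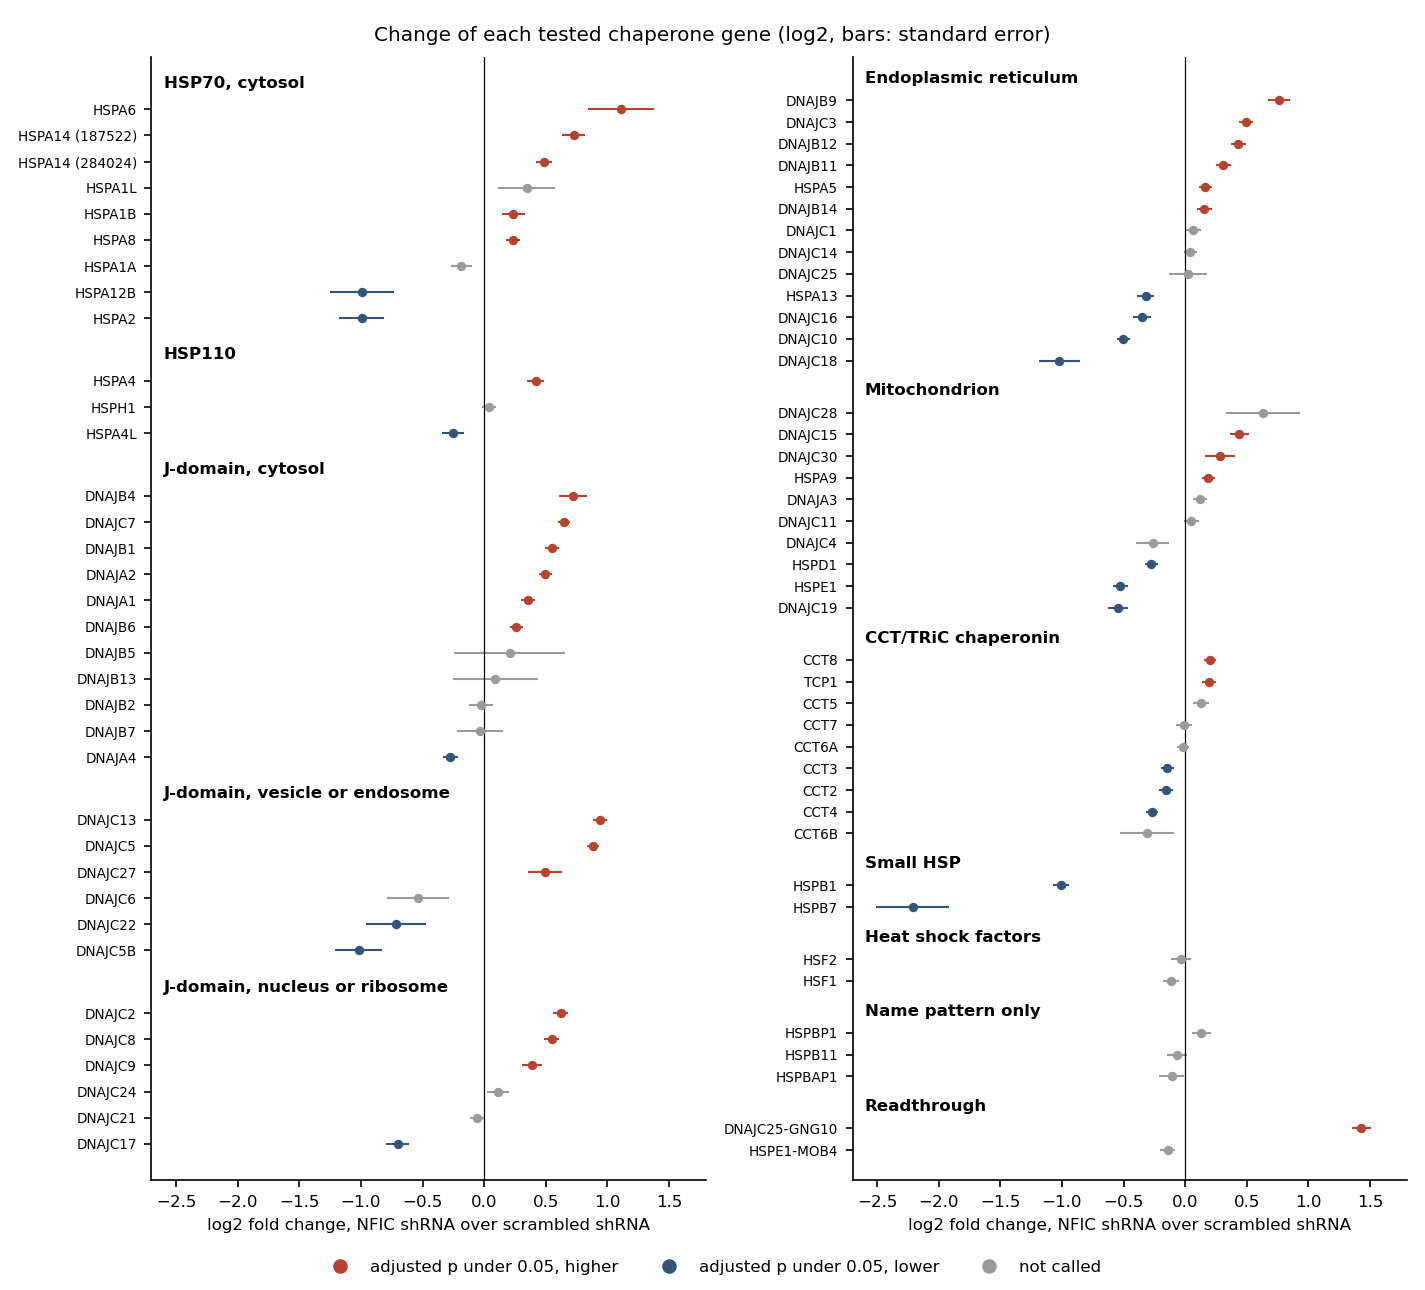
Log2 fold change of NFIC shRNA over scrambled shRNA (x axis) for the 76 members tested, by group, with bars for the standard error and colours for an adjusted p under 0.05 and higher, an adjusted p under 0.05 and lower, or not called. The fitted values run from -2.21 (HSPB7) to 1.43 (DNAJC25-GNG10), and cytosolic J-domain genes lie mostly to the right of 0 whereas the small heat shock genes lie to its left.

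The other 7 members were not tested because of low counts, and are given with their highest count in any of the 6 libraries. These were HSPB2 and HSPB3 with 1, HSPA12A with 2, HSPB9 with 5, DNAJC12 with 8, HSPB2-C11orf52 with 13 and HSPB6 with 14. HSPB2, HSPB3, HSPB6 and HSPB9 encode small heat shock proteins found mainly in muscle or testis.

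The members were ranked by FPKM (reads scaled by gene length and library size), the deposited unit that allows genes of different length to be compared. In the scrambled samples HSPA8, the constitutive cytosolic HSP70, was the highest member at 191 ± 2.34 FPKM (SD, n = 3). HSPA5, the HSP70 of the endoplasmic reticulum, followed at 163 ± 2.25 and HSPD1, the mitochondrial HSP60, at 150 ± 9.02 FPKM. These 3 genes kept this order with NFIC shRNA, at 228 ± 18.1, 185 ± 12.6 and 125 ± 5.56 FPKM. HSPA8 rose and HSPD1 fell, so that the gap between them widened. Some chaperone genes outside the rule were above HSPA8 in the scrambled samples, HSP90AB1 at 531 ± 29.2 and CALR at 384 ± 59.8 FPKM among them.

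Heat shock factors bind inverted repeats of the block GAA, the heat shock element, and the promoter windows that hold such an element with 3 blocks (GAANNTTCNNGAA on either strand) are shown because they mark members with a textbook heat shock element near the start. The windows are those of RefSeq on GRCh38.p14, from 250 bases before to 50 bases after each start, and 71 member symbols had an entry. The element was in 5 of the 71 (7.04%), against 0.608% of the 27305 symbols with a window. Each line gives 30 bases, 5′ to 3′ on the strand of the gene, with the block letters in capitals.
HSPA6, chr1:161524458-161524487, element from -74 to -62: cggaaaggTTCgcGAAagTTCgcggcggcg
HSPA8, chr11:123062345-123062374, element from -230 to -218: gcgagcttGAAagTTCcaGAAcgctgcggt
HSPA8, chr11:123062170-123062199, element from -55 to -43: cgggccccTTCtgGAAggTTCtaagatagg
DNAJA1, chr9:33025268-33025297, element from 4 to 16: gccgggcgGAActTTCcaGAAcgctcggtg
DNAJB6, chr7:157336865-157336894, element from -131 to -119: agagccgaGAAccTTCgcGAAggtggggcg
HSPD1, chr2:197500059-197500088, element from -240 to -228: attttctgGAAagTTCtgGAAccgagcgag
Positions count from the start, with -1 the base before it. In HSPD1 another match to the same letters, on the other strand, overlaps the one shown and runs from -245 to -233. A match is a description of these letters and not evidence of binding.

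Of these 5 genes, HSPA6, HSPA8, DNAJA1 and DNAJB6 were higher with NFIC shRNA and HSPD1 was lower. Among all genes tested 29.6% were higher and 30.3% lower, and a link between the element and the direction was not tested. No match to these strict letters was found for the other heat-inducible members. Of those, DNAJB1, DNAJB4 and HSPA1B were higher, HSPB1, HSPE1 and HSPA4L were lower, and HSPA1A and HSPH1 were not called. The ER stress response element CCAATN9CCACG was in 1 member window, that of HSPA5, which also rose, and in 0.0916% of all windows. It is shown on the HSPA5 strand, with its fixed letters in capitals and from -66 to -48.
HSPA5, chr9:125241385-125241414: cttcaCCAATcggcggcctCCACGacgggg
The palindrome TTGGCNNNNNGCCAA, the sequence to which NFI proteins bind as dimers, was in none of the 71 member windows and in 0.0366% of all windows. These windows are short, and no match says only that these letters are not in them.

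The heat shock factors themselves were not called by edgeR in the fit of all 6 samples, with 0 at an unadjusted p under 0.05 in that fit as well, and 0 by DESeq2 or limma. HSF1, the main regulator of the heat shock response, was at 70.3, 68.0 and 66.4 CPM in the scrambled samples and at 59.4, 69.2 and 60.3 CPM in the NFIC shRNA samples (log2 fold change -0.12, standard error 0.0645, adjusted p = 0.133). N2 lay within the range of the controls while N1 and N3 lay below it, and the adjusted p was 0.0179 without N2 and 0.0314 with upper-quartile normalization. HSF2, a related factor with roles in development, had a log2 fold change of -0.03 (adjusted p = 0.738).

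Among the 10 identifiers grouped as HSP70 genes of the cytosol and nucleus, 9 were tested. Of those, 5 were higher (55.6%, against 29.6% of all genes tested) and 2 lower (22.2% against 30.3%). The symbol HSPA14 stands on 2 of the higher identifiers, which overlap on the same strand, and whether they share reads was not tested. GENCODE names the identifier with the smaller rise MSANTD7, so the 9 identifiers are not 9 separate HSP70 genes. HSPA8 was measured at 932, 951 and 934 CPM in the scrambled samples and at 1103, 1024 and 1189 CPM in the NFIC shRNA samples. The groups did not overlap (log2 fold change 0.24, standard error 0.0545, adjusted p = 0.00126). HSPA8 held 85.9% of the summed FPKM of this group with scrambled shRNA and 85.0% with NFIC shRNA, so the rise of the group from between 220 and 225 to between 248 and 290 FPKM was largely that of HSPA8.

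The heat-inducible HSP70 genes HSPA1A and HSPA1B lie next to each other on chromosome 6 and encode nearly the same protein, and reads may be split between them in a way the counts cannot settle. HSPA1A was at 17.5, 16.9 and 18.7 CPM with scrambled shRNA and at 14.7, 16.2 and 15.6 CPM with NFIC shRNA (log2 fold change -0.19, standard error 0.0861, adjusted p = 0.073). HSPA1B was at 17.5, 15.4 and 14.6 CPM and then at 19.7, 17.9 and 18.5 CPM (log2 fold change 0.24, standard error 0.0905, adjusted p = 0.0313). Each gene separated the groups, in opposite directions, and neither difference was firm: without 1 of C3, C4 or N1 the adjusted p of HSPA1B lay between 0.0864 and 0.152. The pair summed to 33.5 ± 1.39 CPM in the scrambled and 34.2 ± 0.221 CPM in the NFIC shRNA samples (SD, n = 3), and here the groups overlapped.

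HSPA6, an HSP70 gene that is nearly silent without stress, was low, with 24, 15 and 31 counts in the scrambled and 43, 52 and 56 counts in the NFIC shRNA libraries. In CPM these were 1.11, 0.609 and 1.45 against 2.09, 2.24 and 2.43, so that every NFIC shRNA sample was above every control (log2 fold change 1.11, standard error 0.267, adjusted p = 0.0017). HSPA14, an HSP70 of the ribosome-associated complex, is listed under 2 identifiers that share 8694 bases on the same strand of chromosome 10. The identifier ENSG00000187522 rose from 20.2 ± 1.21 to 33.5 ± 4.76 CPM (SD, n = 3; log2 fold change 0.73, adjusted p = 4.5e-06). The identifier ENSG00000284024, which GENCODE release 44 names MSANTD7, rose from 35.8 ± 1.4 to 50.2 ± 2.39 CPM (SD, n = 3; log2 fold change 0.49, adjusted p = 5.18e-06).

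HSPA2, an HSP70 best known from the testis, fell from 4.53, 5.44 and 4.62 CPM to 3.1, 2.41 and 1.86 CPM (log2 fold change -0.995, adjusted p = 0.000165). HSPA12B, a distant HSP70 relative, fell by 0.99 on the log2 scale from a level of 1.75 CPM (adjusted p = 0.00336). HSPA1L, a neighbour of HSPA1A, was not called (log2 fold change 0.34, adjusted p = 0.217), with N2 below all 3 controls and N1 and N3 above them, and had an adjusted p of 0.0268 without N2.

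The 3 HSP110 genes, whose proteins help HSP70 to release nucleotide, did not move as a group. HSPA4 rose from 154, 169 and 166 CPM to 210, 198 and 246 CPM, with no overlap (log2 fold change 0.42, standard error 0.0691, adjusted p = 7.16e-05). HSPH1, a heat-inducible gene, was at 156 ± 5.03 CPM and then at 160 ± 14.1 CPM (SD, n = 3; log2 fold change 0.04, adjusted p = 0.582). The third, HSPA4L, had a log2 fold change of -0.25 (adjusted p = 0.0222), and without 1 of C3, N1 or N2 its adjusted p lay between 0.0785 and 0.136. HSPH1 divided by HSPA8, both in FPKM, was 0.0957 ± 0.00261 with scrambled shRNA and 0.0836 ± 0.00186 with NFIC shRNA (SD, n = 3), without overlap between the groups.

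J-domain proteins of the cytosol hand clients to HSP70. Of their 12 genes 11 were tested, and 6 were higher (54.5% of those tested, against 29.6% of all genes tested) and 1 was lower (9.09% against 30.3%). The summed level went from between 131 and 137 FPKM to between 167 and 186 FPKM. DNAJB1, the classical heat-inducible HSP40, was at 60.4, 55.6 and 55.1 CPM and then at 82.2, 81.4 and 86.7 CPM (log2 fold change 0.55, standard error 0.0584, adjusted p = 3.57e-07). Every NFIC shRNA sample was thus well above the highest control.

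DNAJA1, the most abundant cytosolic J-domain gene by FPKM, rose from 196, 190 and 185 CPM to 252, 224 and 254 CPM (log2 fold change 0.36, adjusted p = 2.69e-05). The ratio of DNAJB1 to DNAJA1 in FPKM went from 0.219 ± 0.00558 to 0.251 ± 0.0134 (SD, n = 3) without overlap. DNAJC7, a co-chaperone with repeats that bind both HSP70 and HSP90, rose from 141 ± 1.09 to 221 ± 12 CPM (SD, n = 3; log2 fold change 0.65, standard error 0.0516, adjusted p = 1.06e-08).

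DNAJB4, whose gene overlaps GIPC2 on the same strand, rose from 7.35 ± 0.668 to 12.1 ± 1.19 CPM (SD, n = 3; log2 fold change 0.72, adjusted p = 3.79e-05). DNAJA2, a relative of DNAJA1, and DNAJB6, which holds back aggregation of polyglutamine proteins, also rose, by 0.50 and 0.26 on the log2 scale. DNAJA4 was the member of this group that fell, from 57.9 ± 2.68 to 47.9 ± 2.48 CPM (SD, n = 3; log2 fold change -0.27, adjusted p = 0.0012). DNAJB2, DNAJB5, DNAJB7 and DNAJB13 were tested and not called, with fitted values between -0.03 and 0.21, and all but DNAJB2 lay under 3 CPM.

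Among members with a mean CPM of at least 5, the largest rises, apart from that of the readthrough gene DNAJC25-GNG10, were those of a pair of J-domain genes of vesicle traffic. DNAJC5, the cysteine string protein of secretory vesicles, was at 203, 201 and 204 CPM in the scrambled samples and at 387, 359 and 378 CPM in the NFIC shRNA samples (log2 fold change 0.89, standard error 0.0485, adjusted p = 1.37e-10). DNAJC13, an endosomal protein that acts with the retromer, was at 106, 105 and 99.95 CPM and then at 194, 189 and 215 CPM (log2 fold change 0.94, standard error 0.0567, adjusted p = 3.76e-10). In both genes every NFIC shRNA sample was far above the highest control.

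The remaining members with roles at membranes moved in either direction at low levels. DNAJC27, a small GTPase with a J domain, rose by 0.49 on the log2 scale to 5.59 ± 0.306 CPM (SD, n = 3; adjusted p = 0.00537). DNAJC5B, a relative of DNAJC5, went the other way, from 5.64, 5.89 and 5.65 CPM to 2.96, 3.66 and 1.86 CPM (log2 fold change -1.02, adjusted p = 0.000178). DNAJC22 fell from 1.62 ± 0.125 to 0.988 ± 0.0726 CPM (SD, n = 3; log2 fold change -0.72, adjusted p = 0.0188), and without N2 its adjusted p was 0.0544. DNAJC6, the auxilin that uncoats clathrin vesicles, was not called (adjusted p = 0.077), and had an adjusted p of 0.0341 without C4. The summed FPKM of the 6 genes was 182% of the scrambled mean, and DNAJC5 alone made up 73.6% of it with scrambled shRNA and 75.5% with NFIC shRNA.

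**Figure D2:**
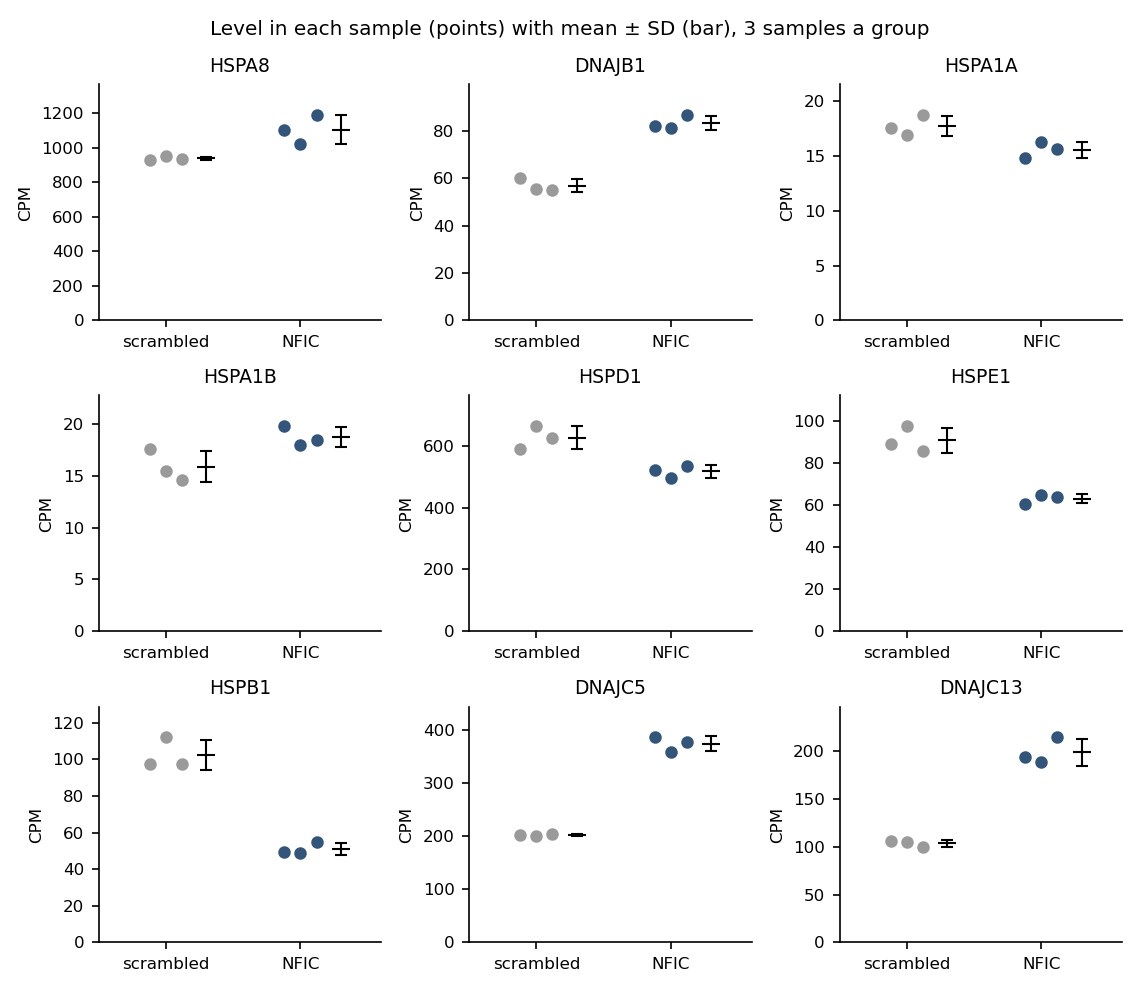
CPM of 9 members in each sample (y axis, from 0), with scrambled shRNA in grey and NFIC shRNA in blue and a bar for the mean ± SD of 3 samples beside the points. DNAJC5 and DNAJC13 are far above the controls in all NFIC shRNA samples, HSPB1, HSPE1 and HSPD1 are below them, and HSPA1A and HSPA1B differ little and in opposite directions.

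J-domain genes of the nucleus and the ribosome included 3 that rose, 1 that fell and 2 not called. Across all genes tested 29.6% were higher and 30.3% lower, and a group of 6 genes says little about such shares. DNAJC2, the ribosome-bound partner of HSPA14, rose from 43.8, 48.8 and 47.0 CPM to 73.6, 67.2 and 74.1 CPM (log2 fold change 0.62, standard error 0.0634, adjusted p = 2.2e-07). Both genes of that ribosome-associated pair, DNAJC2 and HSPA14, were therefore above every control in every NFIC shRNA sample. DNAJC8, a protein of the spliceosome, rose from 130 ± 6.14 to 190 ± 14.7 CPM (SD, n = 3; log2 fold change 0.55, adjusted p = 4.63e-07).

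DNAJC9, a chaperone of histones, rose from 57.3 ± 4.64 to 75.2 ± 8.76 CPM (SD, n = 3; log2 fold change 0.39, adjusted p = 0.00054). DNAJC17, another protein with a role in splicing, fell from 20.2, 19.3 and 17.3 CPM to 10.7, 11.7 and 12.4 CPM (log2 fold change -0.70, standard error 0.0951, adjusted p = 6.1e-06). DNAJC8 and DNAJC17 were thus called in opposite directions. DNAJC21, a factor of ribosome maturation, and DNAJC24, which takes part in diphthamide synthesis, were not called (adjusted p = 0.402 and 0.274).

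The 2 small heat shock genes that could be tested, HSPB1 and HSPB7, fell. Their proteins hold unfolded proteins without using ATP. HSPB1, known as HSP27, was at 97.7, 112 and 97.5 CPM in the scrambled samples and at 49.3, 48.9 and 54.6 CPM in the NFIC shRNA samples. The groups were separated by more than the spread within either (log2 fold change -1.01, standard error 0.067, adjusted p = 1.23e-09). HSPB1 carried 98.5% of the summed FPKM of the 6 small heat shock genes in the table with scrambled shRNA, and their sum fell to 50.5% of the scrambled mean.

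HSPB7, best known from heart muscle, was low, with 61, 52 and 61 counts in the scrambled and 11, 19 and 7 counts in the NFIC shRNA libraries. It had the largest fall of any member tested, from 2.59 ± 0.417 to 0.552 ± 0.258 CPM (SD, n = 3; log2 fold change -2.21, standard error 0.297, adjusted p = 5.57e-06). No NFIC shRNA library came near the lowest control.

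Of 13 members of the endoplasmic reticulum, all tested, 6 were higher and 4 lower. These are 46.2% and 30.8%, against 29.6% and 30.3% of all genes tested. HSPA5, also called BiP, rose from 640, 649 and 653 CPM to 700, 699 and 777 CPM (log2 fold change 0.16, standard error 0.0516, adjusted p = 0.0112). The groups did not overlap and N3 was the highest, and without C1 the adjusted p was 0.0562. DNAJB9, which holds the stress sensor IRE1 in check together with HSPA5, rose from 10.2, 11.0 and 11.0 CPM to 17.6, 18.8 and 18.1 CPM (log2 fold change 0.76, standard error 0.089, adjusted p = 1.06e-06).

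DNAJC3, an inhibitor of the kinase PERK and a partner of HSPA5, rose from 67.4 ± 1.91 to 94.8 ± 5.43 CPM (SD, n = 3; log2 fold change 0.49, adjusted p = 1.05e-06). DNAJB11, a further luminal J-domain gene, and DNAJB12, which is anchored in the membrane and acts in degradation, rose by 0.31 and 0.43 on the log2 scale. DNAJB14, a relative of DNAJB12, was at the edge of the threshold (log2 fold change 0.16, adjusted p = 0.0384), and without 1 of C1, C3, C4 or N2 its adjusted p lay between 0.0685 and 0.142. Together with HSPA5 and DNAJB9, these log2 fold changes ranged from 0.16 to 0.76.

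DNAJC10, a J-domain protein with thioredoxin domains that reduces disulfides, fell from 178, 167 and 177 CPM to 128, 122 and 118 CPM (log2 fold change -0.50, standard error 0.0521, adjusted p = 2.74e-07). DNAJC18 fell from 9.57, 12.03 and 9.25 CPM to 3.59, 6.25 and 5.29 CPM (log2 fold change -1.02, adjusted p = 6.3e-05), and a further protein-coding annotation overlaps it on the same strand. HSPA13, a truncated HSP70 of microsomes, and DNAJC16 fell by 0.32 and 0.35 on the log2 scale. DNAJC1, DNAJC14 and DNAJC25 were not called (adjusted p from 0.418 to 0.903). HSPA5 stood for 55.2% of the summed FPKM of the group with scrambled shRNA and for 56.0% with NFIC shRNA.

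The mitochondrial members split between their HSP70 and their chaperonin. HSPA9, or mortalin, the HSP70 that pulls proteins into the matrix, rose from 547, 524 and 561 CPM to 643, 602 and 615 CPM (log2 fold change 0.19, standard error 0.0492, adjusted p = 0.00316). HSPD1 fell from 589, 663 and 624 CPM to 520, 494 and 535 CPM (log2 fold change -0.28, standard error 0.0535, adjusted p = 0.000268). In neither gene did the groups overlap.

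HSPE1, or HSP10, which closes the HSPD1 barrel, fell from 89.1, 97.4 and 85.8 CPM to 60.6, 64.9 and 63.7 CPM (log2 fold change -0.53, standard error 0.0601, adjusted p = 8.41e-07). HSPE1 divided by HSPD1, both in FPKM, went from 0.329 ± 0.0159 to 0.276 ± 0.0179 (SD, n = 3) without overlap. HSPE1 shares 3037 bases with the readthrough gene HSPE1-MOB4 on the same strand, so that reads could be assigned to either or to neither. In GENCODE the span of HSPD1 also covers the 3310 bases of HSPE1 on the opposite strand. The strand setting of the counting is not given, so reads of HSPD1 and HSPE1 may be mixed as well. HSPE1-MOB4 was at 107 ± 7.01 and then at 97.3 ± 5.59 CPM (SD, n = 3), with a log2 fold change of -0.14 (adjusted p = 0.0515). Its adjusted p was 0.0374 without C4 and 0.00797 without N3. The sum of HSPE1 and HSPE1-MOB4 in CPM was 80.9% of the scrambled mean with NFIC shRNA, again without overlap. HSPD1 was at 82.6% of its scrambled mean, close to this sum. The lower ratio of HSPE1 to HSPD1 therefore depends on how reads were split between HSPE1 and HSPE1-MOB4, which was not tested.

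HSPD1 and HSPE1 lie head to head on chromosome 2, and their promoter windows share an E-box (CACGTG), a core sequence bound by basic helix-loop-helix factors, which is shown because it lies between a pair of genes that both fell. On the HSPE1 strand it runs from -22 to -17, and on the HSPD1 strand from -88 to -83 of another annotated start.
HSPE1, chr2:197500345-197500374: gggtgattttttCACGTGtcgccagggccg
The letters CACGTG were in 10 of 71 member windows (14.1%) and in 8.77% of all windows. HSPD1, HSPE1 and HSPE1-MOB4 hold the same site, which is therefore counted more than once among the 10. Of the 10 symbols 3 were called higher, 3 lower (HSPD1 and HSPE1 among them) and 3 not called (HSPE1-MOB4 among them), and 1 was not tested. Among all genes tested 29.6% were higher and 30.3% lower. HSPA9, DNAJB9 and DNAJC8 were the symbols called higher.

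DNAJC19, a J-domain protein of the protein import motor, fell from 22.6 ± 0.425 to 15.5 ± 1.24 CPM (SD, n = 3; log2 fold change -0.54, adjusted p = 2.71e-05). DNAJC15, its relative, rose from 41.9 ± 1.95 to 56.9 ± 5.79 CPM (SD, n = 3; log2 fold change 0.44, adjusted p = 5.99e-05). These relatives were called in opposite directions. DNAJC30, a protein of the inner membrane, had a log2 fold change of 0.28 (adjusted p = 0.0489) and lost the call in 11 of 16 alternative fits, with an adjusted p between 0.0546 and 0.131 without 1 of C1, C3, C4, N1 or N3.

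DNAJA3, DNAJC4, DNAJC11 and DNAJC28 were not called, with adjusted p from 0.0822 to 0.512, although DNAJC4 (log2 fold change below 0) reached 0.0173 without C3 and 0.0355 without N2. DNAJA3, the mitochondrial J-domain protein also called TID1, nevertheless had all NFIC shRNA samples above the controls, at 58.5 ± 1.66 and then 63.6 ± 2.35 CPM (SD, n = 3). The summed level of the 10 mitochondrial members was 298 to 319 FPKM in the scrambled and 273 to 289 FPKM in the NFIC shRNA samples. In CPM, where long genes weigh more, the sums of 1441 to 1504 and 1387 to 1461 overlapped. The share of HSPD1 in the summed FPKM went from 48.5% to 44.5% and that of HSPE1 from 15.9% to 12.3%, while that of HSPA9 went from 21.9% to 27.7%. This sum leaves out HSPE1-MOB4, so the share of HSPE1 also depends on how reads were split.

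**Figure D3:**
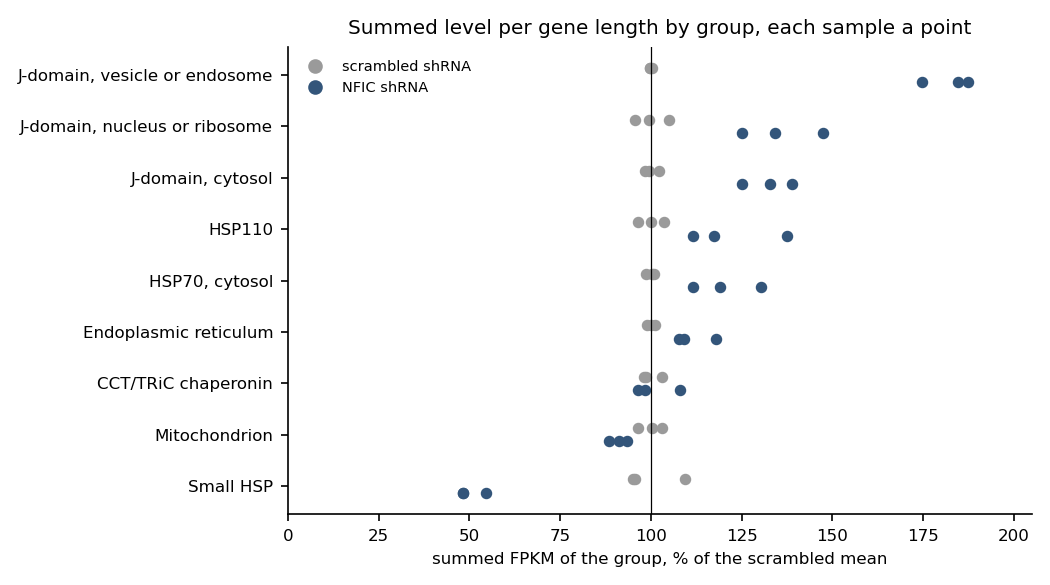
Summed FPKM of 9 groups of members in each sample as a percentage of the scrambled mean (x axis), with scrambled shRNA in grey and NFIC shRNA in blue. The 6 membrane J-domain genes reach 182% on average and the small heat shock genes 50.5%, the mitochondrial group lies at 91.0%, and the chaperonin group, at 101%, overlaps the controls.

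CCT/TRiC is built from 8 different subunits in equal number, and CCT6B is a testis form of CCT6A. Their summed level was 551 ± 15.2 FPKM with scrambled shRNA and 556 ± 34.0 FPKM with NFIC shRNA (SD, n = 3), with overlapping groups, but single subunits moved apart. CCT8 rose from 77.5, 77.7 and 79.6 FPKM to 89.4, 87.2 and 96.5 FPKM (log2 fold change 0.20, standard error 0.0497, adjusted p = 0.00199). TCP1, the alpha subunit, rose from 73.4, 77.6 and 72.5 FPKM to 81.9, 81.9 and 94.2 FPKM (log2 fold change 0.19, standard error 0.0565, adjusted p = 0.00746).

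CCT4 fell from 65.3, 65.7 and 61.8 FPKM to 54.5, 52.9 and 54.6 FPKM (log2 fold change -0.27, standard error 0.0493, adjusted p = 0.000158). CCT2 and CCT3 fell less, with log2 fold changes of -0.16 and -0.14 (adjusted p = 0.0183 and 0.0185). Neither call was firm, since without 1 of C3, N1 or N2 the adjusted p of CCT2 lay between 0.0706 and 0.0801, and without 1 of C1, C3, N1 or N2 that of CCT3 lay between 0.0508 and 0.0926.

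CCT5, CCT6A and CCT7 were not called, with log2 fold changes of 0.13, -0.02 and -0.01 (adjusted p = 0.0914, 0.791 and 0.933), and CCT5 reached an adjusted p of 0.0484 without C3 and of 0.0293 without N2. In each of these 3 subunits N3 was the highest of all 6 samples. CCT6B stayed at 0.382 to 0.659 FPKM per sample and was not called (adjusted p = 0.233). In every sample CCT3 was the highest and CCT7 the lowest of the 8 subunits, with a coefficient of variation over the subunits of 35.2% to 38.0%.

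**Figure D4:**
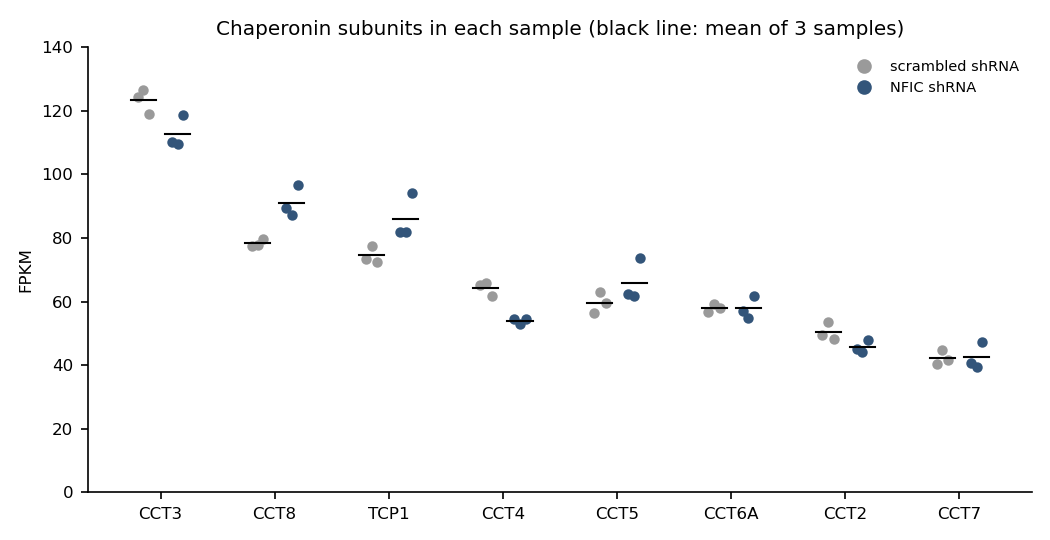
FPKM of the 8 chaperonin subunits in each sample (y axis, from 0), with scrambled shRNA in grey, NFIC shRNA in blue and a black line for the mean of 3 samples. CCT8 and TCP1 are above the controls in all NFIC shRNA samples, CCT4, CCT2 and CCT3 are below them, and CCT5, CCT6A and CCT7 overlap.

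Cut across these compartments, 12 members belong to the set that heat shock is known to induce. Across all genes tested, 29.6% were higher and 30.3% lower. Of these 12 members, 6 were higher (HSPA6, DNAJB4, DNAJB1, DNAJA1, HSPA1B and HSPA8). Another 4 were lower (HSPB1, HSPE1, HSPD1 and HSPA4L) and 2 were not called (HSPA1A and HSPH1). Their median log2 fold change was 0.14, and their summed level was 580 ± 18.4 FPKM with scrambled shRNA and 574 ± 34.5 FPKM with NFIC shRNA (SD, n = 3), with overlapping groups. The heat-inducible members thus had no common direction in these samples.

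The 3 members that match only by name were not called, with 0 of them also at an unadjusted p under 0.05, by DESeq2 or by limma. HSPBP1, a nucleotide exchange factor of HSP70, had a log2 fold change of 0.13 (adjusted p = 0.163), HSPBAP1, which binds HSPB1, had one of -0.11 (adjusted p = 0.361), and HSPB11, a transport protein of cilia also named IFT25, had one of -0.07 (adjusted p = 0.506). The readthrough gene DNAJC25-GNG10 had the largest rise of any member tested, from 16.4, 17.6 and 16.6 CPM to 45.5, 41.7 and 49.1 CPM (log2 fold change 1.43, standard error 0.0783, adjusted p = 1.37e-10). It overlaps both DNAJC25, which was not called, and GNG10, and the reads of the 3 annotations could not be separated here.

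Partners that work with these chaperones, 57 genes of 5 lists, were counted in the same fit. Of these, 22 were higher and 12 lower, which is 38.6% and 21.1% against 29.6% and 30.3% of all genes tested. The cytosolic HSP90 genes went in opposite directions: HSP90AA1, the inducible form, rose from 819, 908 and 866 CPM to 1016, 942 and 1141 CPM (log2 fold change 0.26, adjusted p = 0.00231), and HSP90AB1, the constitutive form, fell from 1520, 1691 and 1596 CPM to 1272, 1230 and 1392 CPM (log2 fold change -0.30, adjusted p = 0.000176). HSP90B1 of the endoplasmic reticulum rose by 0.27 and the mitochondrial TRAP1 fell by 0.55 on the log2 scale. In CPM the summed level of the 4 HSP90 genes was 3625 ± 192 and then 3685 ± 295 (SD, n = 3).

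Of 21 co-chaperones of HSP70 and HSP90, 6 were higher and 8 lower, or 28.6% and 38.1% against the same shares of all genes. FKBP4, an immunophilin of the steroid receptor complex, fell from 125, 146 and 133 CPM to 50.5, 53.7 and 46.5 CPM (log2 fold change -1.42, standard error 0.0675, adjusted p = 3.23e-11). PPID, another immunophilin, and PPP5C, a phosphatase that binds HSP90 in the same way, fell by 0.79 and 0.58 on the log2 scale. The immunophilin FKBP5 was not called (log2 fold change 0.11, adjusted p = 0.244). BAG4 and BAG6, which carry the BAG name of HSP70 exchange factors, rose by 0.70 and 0.56. The other BAG genes were mixed: BAG3 rose by 0.35, BAG1 and BAG2 fell by 0.26 and 0.28, and BAG5 was not called.

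Prefoldin and the other helpers of CCT/TRiC had 5 of 9 genes higher (55.6%, against 29.6% of all genes tested), PFDN1 and PFDN5 among them. The mitochondrial partners, GRPEL1 and the protease LONP1 among them, had 3 of 7 higher (42.9%). In either list 0 were lower by edgeR's adjusted p, and 0 also at an unadjusted p under 0.05, by DESeq2 and by limma. Of all genes tested 30.3% were lower, and lists this short say little about such a share. Of 16 folding and stress genes of the endoplasmic reticulum, 6 were higher (37.5%) and 2 lower (12.5%). CRELD2, among the higher ones, had a log2 fold change of 0.61. The sensors ERN1 and EIF2AK3 and the factor XBP1 were among the 8 not called.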

How the data were processed

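THP-1 mRNA was sequenced in 6 samples, 3 per group as the labels name them (the methods describe the control vector as GFP only). The authors trimmed the reads with Trim Galore, aligned to GRCh38 by STAR and counted reads per Ensembl gene by featureCounts, and the deposited counts are not normalized. The authors deposited FPKM per gene and sample, with a gene length. The tools' versions and the strand setting of the counting are not given in the sources used here, and 26 members overlap a protein-coding gene on the opposite strand and 13 one on the same strand. Other deposited columns, normalized counts and the authors' DESeq2 comparison (fold change, error, statistic and p), were not used.

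The counts were fitted in edgeR 4.0.16 under R 4.3.3 after TMM scaling and filterByExpr, with robust quasi-likelihood fits and no replicate block, and Benjamini-Hochberg adjustment covered the 19182 genes tested (threshold 0.05). Log2 fold changes are from this fit, also where FPKM are given. The standard error is the log2 fold change divided by the square root of F. Values are mean ± SD over 3 samples. The procedure was tested on simulated counts in which few genes were altered, with as many rises as falls. In these data 59.9% of the genes tested were called, a case that the simulation does not cover. With 3 samples a group, DESeq2 1.42.0 and limma 3.58.1 served as alternatives. Every pair of replicates differed by more than sampling noise (chi-square per degree of freedom from 1.99 to 7.91). Positions and overlaps are from GENCODE release 44, matched by identifier for all 83 members. Promoter windows are from RefSeq.

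The members and the lists were chosen with earlier results of these data known. Named were NFIC, the chaperonin subunits, HSF1, HSF2, the heat-inducible members, and in each other group the member with the highest FPKM and up to 2 called rises and 2 called falls with a mean CPM of at least 5, and 3 each among the partners with HSP90AA1 and HSP90AB1. All other members and partners were named after their values were seen. HSPB8, DNAJB3, DNAJB8 and DNAJC5G were not analysed here.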

Additional observations from a re-analysis of the deposited data

How the results depend on the processing

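No alternative moved the counts of members called or of all genes called by more than 1.5 times: over the 10 fits with all samples, members called higher ranged from 26 (upper-quartile normalization) to 32 (library totals) and members called lower from 17 (DESeq2) to 22 (upper-quartile normalization or no filter on low counts). Leaving out each sample in turn gave 27 to 31 members higher and 16 to 21 lower. None of the 49 members called changed sign in the 16 alternatives. With the label number as a replicate block 28 members were higher, 19 lower and 10983 genes called in all. Same-numbered samples had correlations of deviations of 0.0563, -0.0862 and -0.0446 across genes. With 3 samples a group, these values cannot settle whether the numbers pair the samples. Pairing C1 with N1 and C3 with N3 by the numbers in their names, and the remaining C4 with N2, gave 0.0563, 0.145 and 0.0267. With this pairing as a block 31 members were higher and 21 lower. The genes called in all were then 12099, against 11486 without a block.

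Of 51 named identifiers, 38 kept direction and call in every alternative. The others were small changes: CCT2, CCT3, DNAJC30, HSPA1B, HSPA4L and HSPA5 lost the call in 3, 4, 11, 5, 4 and 2 alternatives, and CCT5, HSF1 and HSPA1A gained one in 5, 2 and 1. With upper-quartile normalization, which moved the median of all genes to -0.07, HSPA5 had an adjusted p of 0.0707, HSPA1B 0.0985, HSPA1A 0.0234 and HSF1 0.0314. Genes near 0 changed sign without a call. CCT6A had 0.000466 with library totals and -0.0561 to 0.0224 with 1 sample left out, positive without N2. CCT7 had 0.00151 with DESeq2 size factors, 0.0103 with library totals, 0.00914 with DESeq2 and -0.0816 to 0.0475 with 1 sample left out, positive without C3, N1 or N2. HSF2 had -0.0943 to 0.0223 with 1 sample left out, positive without N1, and HSPH1 had -0.0175 with upper-quartile normalization and -0.0288 to 0.0956 with 1 sample left out, negative without N3. The cause of these shifts was not tested. Levels per length from CPM divided by the gene length moved 0 of 41 named members by over 1 SD relative to HSPA8. Library scaling cancels in such a ratio and the gene lengths were the same. That comparison could not come out otherwise, and is no check of the levels. Members under 3 CPM rest on few counts, and a difference there may not be detectable at this depth.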

Other observations

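Genes of other biotypes whose symbols fit the same patterns, mostly pseudogenes and antisense RNAs, are not members. Of these, 9 passed the filter on low counts, 1 was higher and 0 lower with NFIC shRNA by edgeR. DNAJC3-DT, a long noncoding RNA that starts next to DNAJC3, rose from 3.34 ± 0.71 to 4.7 ± 0.207 CPM (SD, n = 3; log2 fold change 0.50, adjusted p = 0.0161). HSPA7, a pseudogene close to HSPA6, was not called at 1.25 and then 1.13 CPM on average (adjusted p = 0.713). The HSPD1 pseudogene HSPD1P4 had a log2 fold change of 0.45 (adjusted p = 0.094), and CCT6P1 and CCT6P3, copies of CCT6A, had 0.15 and 0.10 (adjusted p = 0.239 and 0.55).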
